A study of Bos taurus with 3 samples.

Results

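The cytosolic ribosomal protein genes were examined in single epithelial cells of the bovine rumen. The members were chosen by name alone, as all genes called RPL or RPS with a number and, where present, a closing letter or paralog mark, together with RPLP0, RPLP1, RPLP2 and RPSA. This gave 80 genes of the 19533 named genes in the count matrix, of which 48 belong to the large and 32 to the small ribosomal subunit. RPL22, RPL31 and RPL39L were not analysed here.

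The cells came from the ventral rumen of 3 adult lactating Holstein dairy cows with no treatment, and each cow gave 1 library. The tissue was freed of its muscle layers and taken apart with EDTA, trypsin and a mixture of collagenases, dispase, hyaluronidase and DNase, dead cells were removed, and 3′ libraries were made with droplets, so that each captured transcript was counted once by its UMI (unique molecular identifier) whatever its length. The authors kept epithelial cells only, in 1 cell suspension per animal, and all 3 cows form a single group, so the comparisons here are between cells of the same cow. The matrix held 20728 cells, with 3369, 7401 and 9958 in cows 1, 2 and 3.

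Every cytosolic ribosome is built from these proteins around its RNAs, and most of them are needed in equal numbers. Their mRNAs begin with a run of pyrimidines (the TOP motif), through which nutrient and growth signals acting on the mTOR kinase and LARP1 set their translation and stability. In stratified epithelia, ribosome production is known to be high in the growing lower layers and to cease as keratinocytes cornify.

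Cells were placed in exclusive states by the UMIs of single genes, in a fixed order. BPIFA2C-rich cells held at least 10 UMIs per 10000 of BPIFA2C, a member of the BPI fold family of secreted proteins. Of the cells left, those with at least 2 UMIs of TOP2A, the DNA topoisomerase of dividing cells, then at least 2 UMIs of GJA1, a gap junction protein, and then at least 1 UMI of DLK2, a membrane protein related to the Notch ligand DLK1, were set apart, and the others are called the remaining cells. BPIFA2C-rich cells numbered 142, 55 and 73 in cows 1, 2 and 3, TOP2A cells 216, 190 and 1237, GJA1 cells 317, 351 and 313, DLK2 cells 1311, 3682 and 2342, and remaining cells 1383, 3123 and 5993. A state is a range of UMI numbers and not a cell type. The paper took DLK2 as a marker of granule cells and GJA1 as a marker of channel-gap cells. Of the 7335 DLK2 cells, 3937 held a single DLK2 UMI, and 306 TOP2A cells (18.6%), 173 GJA1 cells (17.6%) and 7.41% of the BPIFA2C-rich cells held DLK2 UMIs as well, so the DLK2 state does not take in every cell with the gene. No share of cells with free DLK2 RNA was measured, and a remaining cell may hold DLK2 that was not captured. In addition, the cells of each cow were ranked by the summed UMI share of 12 immediate-early (IE) genes such as FOS, JUN and EGR1, which respond within minutes to stimulation and to tissue dissociation, and the 842, 1850 and 2489 highest cells (IE-high) were set against as many of the lowest (IE-low). The limits were set within each cow, with IE-high from 1.07%, 1.41% and 0.261% of UMIs and IE-low up to 0.121%, 0.443% and 0.0218% in cows 1, 2 and 3, so the upper limit of cow 3 lies below the lower limit of cow 2.

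The libraries held 38912809, 94856658 and 104189434 UMIs in cows 1, 2 and 3, and mitochondrial genes took 18.6%, 11.5% and 13.0% of them. The keratin list (KRT5, KRT14 and KRT19) was at 45.8 or more UMIs per 10000 in every state and cow, and the summed markers of fibroblasts, immune cells, endothelium and smooth muscle were at 0.186 or less. Cow 1 stood apart by its mitochondrial share, and 35 barcode sequences occurred in more than 1 library.

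Ribosomal protein genes held 31.3%, 39.5% and 33.8% of all UMIs in cows 1, 2 and 3, and 38.4%, 44.6% and 38.9% of the UMIs that were not mitochondrial. Single cells varied widely around these sums. The median cell of cow 1 gave 31.0% of its UMIs to the 80 genes, with 15.2% at the 5th and 44.2% at the 95th percentile. In cow 2 the median was 41.3%, between 29.8% and 47.6%, and in cow 3 it was 35.1%, between 24.0% and 45.5%. Over the cells of a cow, this share ran against the mitochondrial share, with Spearman's rho of -0.75, -0.48 and -0.57 in cows 1, 2 and 3. The relation to depth had no common direction, since rho with the UMIs of a cell was 0.14, -0.35 and -0.41. These are descriptions over cells that share a library, and the mitochondrial UMIs stand in the denominator of the share. With these UMIs left out of the denominator, rho with the mitochondrial share was -0.55, -0.21 and -0.40 in cows 1, 2 and 3.

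The members were far from equal in level. RPLP1, an acidic protein of the stalk that recruits elongation factors, was first, with 194, 190 and 157 UMIs per 10000 in cows 1, 2 and 3. RPLP0, the base of the same stalk, followed with 95.2, 153 and 116, and RPLP2, the partner of RPLP1, was lower at 48.4, 40.7 and 41.6. RPLP0 was thus higher in cow 2 than in the other cows, whereas RPLP2 was highest in cow 1. RPS2, RPS18, RPS12, RPS14 and RPL27A were also among the leading members, with means of 103 down to 77.6 UMIs per 10000.

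In all, 73 members had over 100000 UMIs, and for these the coefficient of variation over cows had a median of 18.2%. RPS15A and RPL12 were the only ones of them above 30%. RPS15A was at 19.2, 14.7 and 9.17 UMIs per 10000 and RPL12 at 38.4, 71.0 and 47.5, so that they ordered the cows differently. Cow 2 had the highest level for 51 of these 73 members.

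The lowest levels belonged to paralogs and to 1 row of RPS29. RPL22L1 had a mean of 2.53 ± 0.732 UMIs per 10000 (SD, n = 3), RPS27L 1.59 ± 0.258, RPL7L1 0.966 ± 0.142 and RPL26L1 0.864 ± 0.172. The genes they resemble stood much higher, with 45.4 ± 8.41 for RPS27, 28.8 ± 5.24 for RPL7 and 23.8 ± 4.88 for RPL26. RPL3L, the striated muscle paralog of RPL3, had 18 UMIs in all cells together, and RPL10L, the testis paralog of RPL10, had 10. RPS29 was listed under 2 gene identifiers, and the row that the naming rule took held 999 UMIs while the other held 763926, so that little can be read from the first.

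**Figure D1:**
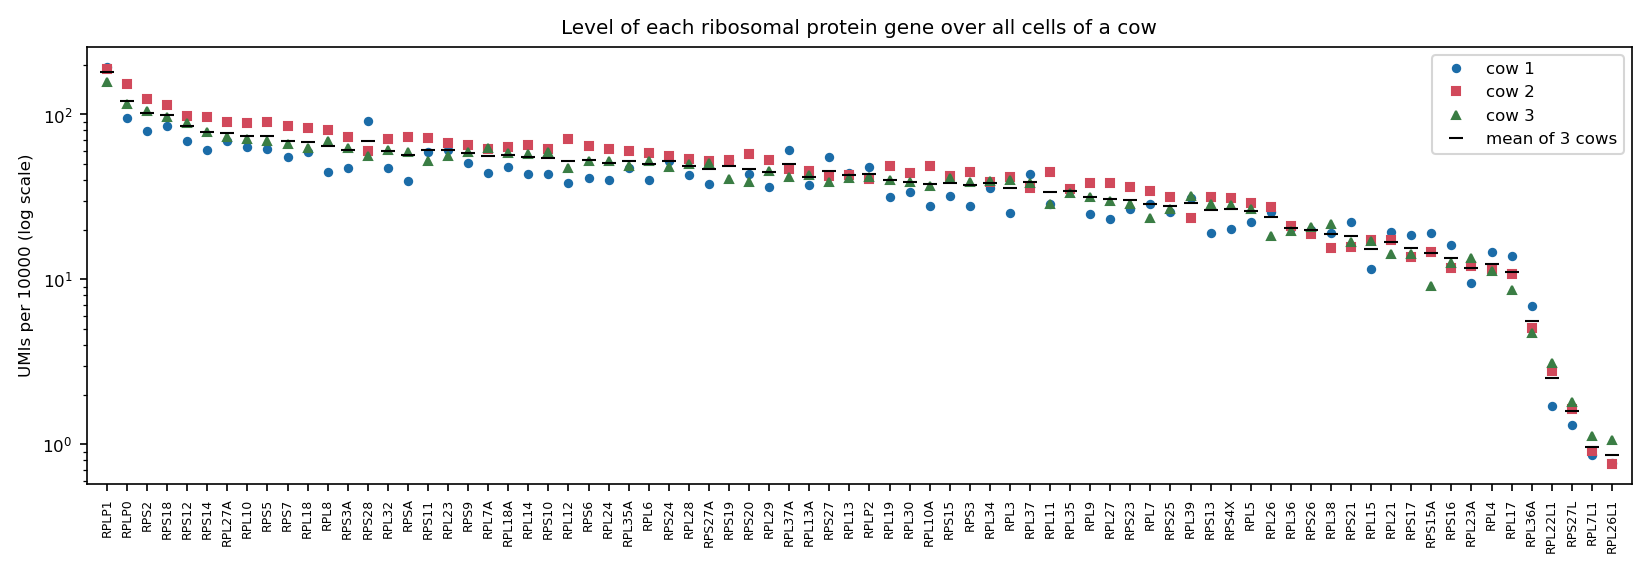
UMIs per 10000 over all cells (log scale) for ribosomal protein genes with at least 10000 UMIs, ordered by their total, with a symbol for each cow and a bar for the mean of 3 cows. RPLP1 stands highest at 157 to 194, RPLP0 follows, and RPL22L1, RPS27L, RPL7L1 and RPL26L1 fall below all others shown.

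The first question was how the summed share differed between states. In DLK2 cells it was 35.6%, 41.6% and 37.2% in cows 1, 2 and 3, against 29.0%, 37.8% and 32.9% in all other cells of the same cow. In GJA1 cells it was 25.0%, 31.4% and 26.7%, against 32.4%, 40.1% and 34.1% in all other cells. Every cow therefore had its share higher in DLK2 cells, by 4.92 ± 1.51 percentage points (SD over 3 cows), and lower in GJA1 cells, by a mean difference of -7.83 ± 0.744. BPIFA2C-rich cells gave 25.2%, 30.7% and 26.1%, which is a difference of -7.68 ± 1.21 from all other cells. TOP2A cells gave 24.8%, 33.9% and 30.3%, a difference of -5.76 ± 1.43. Remaining cells lay between these groups and the DLK2 cells, with 32.2%, 39.4% and 34.3%. The direction was the same in 3 of 3 cows in each of these comparisons, and the two-sided exact sign-flip permutation test gave p = 0.25 in each, the smallest value that 3 paired differences allow. The 4 comparisons share cells, because the other cells of one comparison hold the states of the rest.

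With mitochondrial UMIs left out of the denominator, the differences were -7.41 ± 1.61 for BPIFA2C-rich, -5.95 ± 1.10 for TOP2A, -7.36 ± 0.892 for GJA1 and 4.36 ± 0.878 for DLK2 cells, so the directions were as before. Mitochondrial genes took 23.9%, 15.0% and 15.9% of the UMIs of GJA1 cells in cows 1, 2 and 3 and 14.7%, 10.6% and 12.0% of those of DLK2 cells. Depth also moved with the states. The median GJA1 cell held 17704, 18520 and 13864 UMIs and the median DLK2 cell 9147, 10718 and 8828. The median TOP2A cell held 15524, 18955.5 and 14797 UMIs, and mitochondrial genes took 22.6%, 12.8% and 13.2% of the UMIs of TOP2A cells. With each cell thinned to 3000 UMIs and the states set again, 130, 97 and 92 cells were left as GJA1 and 637, 1741 and 1112 as DLK2 cells, so that depth and membership both changed, and the differences were -9.88 for GJA1 and 3.26 for DLK2 cells. The part of depth alone was not tested.

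The share describes composition, and the number of ribosomal protein UMIs in a cell need not follow it. The mean GJA1 cell held 4501, 6062 and 3879 of them in cows 1, 2 and 3, more than the 3622, 4864 and 3460 of the mean DLK2 cell, although GJA1 cells were picked by a number of UMIs and were deeper. The mean TOP2A cell, picked and deeper in the same way, held 4056, 6561 and 4458, more than the mean DLK2 cell in each cow. BPIFA2C-rich cells, picked per 10000 UMIs, held 3542, 6161 and 3458, which is more than DLK2 cells in cow 2 and slightly fewer in cows 1 and 3. The balance of the subunits hardly moved, since large subunit genes had 1.27 ± 0.00763 UMIs for each small subunit UMI in GJA1 cells and 1.25 ± 0.00357 in DLK2 cells (SD, n = 3).

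IE level divided the cells in the same sense as DLK2. IE-high cells held 36.5%, 41.3% and 37.4% ribosomal protein UMIs in cows 1, 2 and 3, and IE-low cells 28.2%, 37.7% and 31.9%. All 3 cows were higher in IE-high cells, by 5.84 ± 2.37 percentage points (exact sign-flip permutation p = 0.25), and by 4.43 ± 1.79 of the UMIs that were not mitochondrial. The classes differ in make-up, because DLK2 cells were 60.2%, 61.2% and 27.9% of the IE-high and 25.2%, 39.7% and 20.9% of the IE-low cells, and TOP2A cells were 0.238%, 0.541% and 6.71% against 13.2%, 5.41% and 16.0%. The list set up for terminal keratinocyte differentiation summed to 1.14, 1.73 and 5.30 UMIs per 10000 in IE-high and 9.15, 6.60 and 9.21 in IE-low cells. Of its genes, S100A8 (log2 fold change -2.68), KRT6A (-1.55) and KRT10 (-0.62) were called lower, also within DLK2 cells (-2.66, -1.09 and -0.68). The paper used these genes as markers of spinous cells. Immune markers summed to 0.0979, 0.117 and 0.146 in IE-high and 0.0409, 0.0571 and 0.0651 in IE-low cells, with CD68 called higher (2.37, and 2.91 within DLK2 cells). CD74 (0.12) and CD3E (-0.08) were not called, nor was CD74 within DLK2 cells (-0.44). The summed cycling markers were at 0.200, 0.228 and 2.49 in IE-high and 5.60, 1.60 and 4.52 in IE-low cells. IE genes took 1.65%, 1.86% and 0.538% of the UMIs of IE-high and 0.0451%, 0.223% and 0.00977% of those of IE-low cells. The median IE-high cell held 7393, 8862.5 and 8080 UMIs and the median IE-low cell 11903.5, 13244.5 and 10263, and mitochondrial genes took 11.6%, 9.48% and 11.6% against 21.0%, 12.8% and 14.0%. The part of these values in the result was not tested. Within DLK2 cells alone, the share was 36.5%, 41.7% and 40.4% in the IE-high and 32.5%, 41.4% and 34.7% in the IE-low cells, a difference of 3.33 ± 2.77, which was 2.14 without cow 3. There the median IE-high cell held 7292, 8270.5 and 7021 UMIs and the median IE-low cell 9777, 11808 and 9623, with mitochondrial shares of 10.0%, 8.60% and 10.1% against 18.7%, 11.7% and 13.4%. With mitochondrial UMIs left out, that difference was 0.598, -1.28 and 4.88 percentage points in cows 1, 2 and 3, so cow 2 had the opposite sign and the exact sign-flip permutation p was 0.75.

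**Figure D2:**
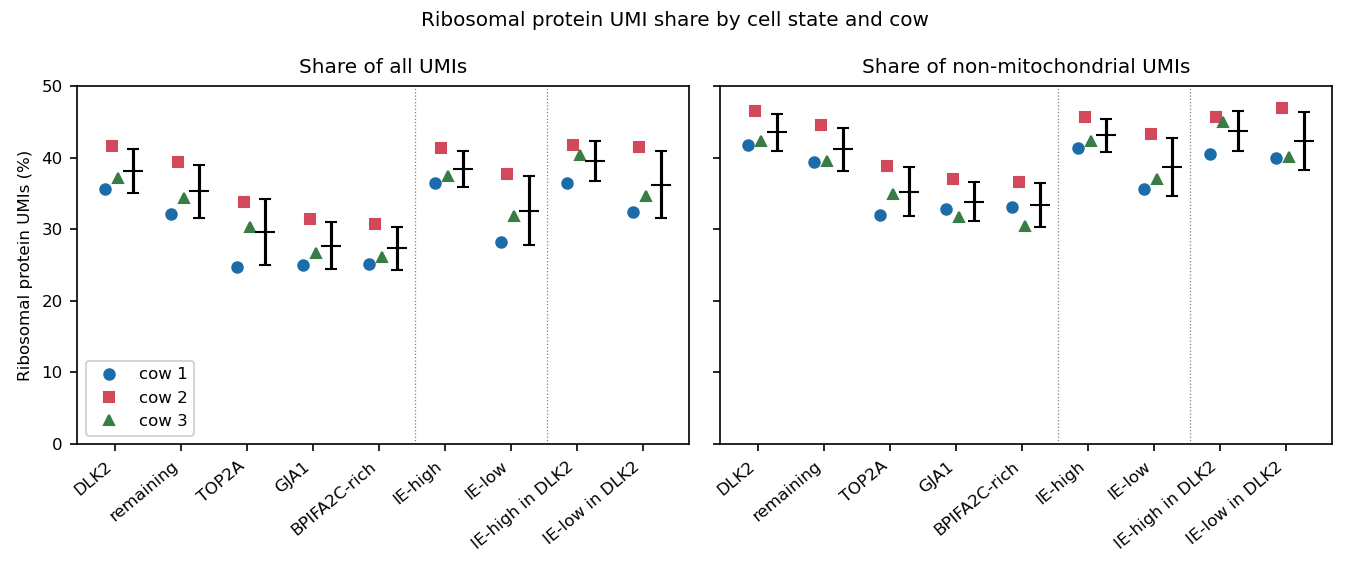
Ribosomal protein UMIs as a percentage of all UMIs (left) and of non-mitochondrial UMIs (right) for the 5 exclusive states and the IE classes, with a symbol for each cow and a black bar for the mean ± SD of 3 cows. On the left, DLK2 cells lie between 35.6% and 41.6% and GJA1 cells between 25.0% and 31.4%, and each cow is lower in GJA1, BPIFA2C-rich and TOP2A than in DLK2 cells.

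Single genes were then tested on UMIs summed per cow and state with edgeR, with the cow as a block, over all genes that passed a filter on low counts. Calls needed a Benjamini-Hochberg adjusted p below 0.05 together with a log2 fold change above 0.25 in either direction. Without the block, 0 members were called in any of the 6 comparisons. Of the members 78 were tested in each comparison, and RPL3L and RPL10L were too low to be tested. The fold changes are relative to the trimmed mean of M values (TMM) scaling. When the plain library size was used in its place, the median of all genes shifted by 0.12 in the TOP2A and -0.14 in the GJA1 comparison on the log2 scale. Counts of cows in which a gene was higher or lower rest on its share of all UMIs, without TMM.

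In TOP2A cells 65 of the 78 members fell and 0 rose, beside 15.1% of all 11902 tested genes called lower and 14.2% called higher. The members' median log2 fold change was -0.38, beside -0.05 for all genes. At an unadjusted p under 0.05, 74 members were lower and 0 higher by edgeR, and DESeq2 called 65 lower and 0 higher. The share of all genes was not set beside these counts. The share of all calls that were higher was 48.5% with TMM and 68.3% with library size scaling, under which 44 members were called lower beside 9.67% of all genes.

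The called members with the strongest change in TOP2A cells were RPS27, RPL18, RPS28, RPL35A and RPLP1. RPS27, a zinc finger protein of the small subunit, was at 37.0, 32.2 and 32.6 UMIs per 10000 in TOP2A cells of cows 1, 2 and 3 and at 67.9, 46.1 and 44.7 in DLK2 cells. Against all other cells RPS27 fell by 0.56 ± 0.07 on the log2 scale (SE, adjusted p = 6.5e-05 by edgeR). RPL18 had a log2 fold change of -0.51, RPS28 of -0.49, RPL35A of -0.48 and RPLP1 of -0.47. RPL18 was at 41.8, 64.1 and 53.4 UMIs per 10000 in TOP2A cells and at 72.5, 91.3 and 71.1 in DLK2 cells, without overlap between the states. The decrease took in both proteins that bind the 5S RNA and MDM2, RPL5 (log2 fold change -0.42) and RPL11 (-0.44), and RPS6, the target of the S6 kinase (-0.35). RPL4, RPS29, RPS27L, RPL26L1, RPLP2, RPS27A and RPS16 were among the 13 members not called. The cycling markers (TOP2A, MKI67, CDK1, CCNB1 and CENPF) were all called higher there, as the state was set by one of them. Of the paper's spinous cell markers, KRT6A (-0.47) and KRT10 (-0.31) were called lower and S100A8 (-0.04) was not called. Their part in the result was not tested. The endothelial marker VWF was called lower (log2 fold change -1.08), with all endothelial markers summing to 0.0283, 0.0136 and 0.0132 UMIs per 10000 in TOP2A and 0.0376, 0.0194 and 0.0240 in remaining cells, and its part in the result was not tested.

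In GJA1 cells 33 members fell and 1 rose, beside 18.5% of all 11506 tested genes called lower and 17.7% called higher. The members' median was -0.23, beside -0.04 for all genes. At an unadjusted p under 0.05 by edgeR, 58 members were lower and 3 higher, counts without the share of all genes beside them. Of all calls, 48.9% were higher with TMM and 31.4% with library size scaling, and with the latter 60 members were called lower beside 26.5% of all genes. RPL22L1, a paralog of RPL22, fell by 0.53 ± 0.08 and RPL26L1, a paralog of RPL26, by 0.51 ± 0.07 (SE). RPS19, the gene most often mutated in Diamond-Blackfan anaemia, had a log2 fold change of -0.46, RPL10A of -0.45 and RPS4X, the X-linked form of RPS4, of -0.43. RPS4X was at 13.8, 21.4 and 20.4 UMIs per 10000 in GJA1 cells and at 25.1, 34.1 and 32.0 in DLK2 cells of cows 1, 2 and 3. Within each cow the level of RPS4X was lower in the GJA1 cells, and over the 3 cows the states did not overlap. The list set up for terminal keratinocyte differentiation moved with this state. The sum of KRT6A, S100A8, KRT10 and CNFN was at 16.9, 14.8 and 32.1 UMIs per 10000 in GJA1 and 2.72, 2.60 and 3.85 in DLK2 cells. CNFN had no UMI in GJA1 cells, and the paper used KRT6A, S100A8 and KRT10 as markers of spinous cells. All 5 cycling markers were called lower, from -4.39 for TOP2A to -1.59 for CENPF. Cells with 2 or more TOP2A UMIs had been set apart from this state beforehand. The keratin KRT19 was called lower as well (-0.44), whereas KRT5 (0.24) and KRT14 (0.21) of the same list were above 0 and not called. The endothelial marker VWF was called higher in GJA1 cells (log2 fold change 0.93, adjusted p = 0.0076 by edgeR), with all endothelial markers summing to 0.0421, 0.0340 and 0.0505 UMIs per 10000, against 0.0376, 0.0194 and 0.0240 in remaining cells. The immune marker CD74 was called lower (-0.93), and CD3E (0.11) and CD68 (-0.40) were not called. All immune markers were at 0.0368, 0.0812 and 0.0242, against 0.0557, 0.0810 and 0.0856 in remaining cells. The part of these markers in the result was not tested.

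BPIFA2C-rich cells gave 34 members lower and 1 higher, beside 11.2% of all 11487 tested genes lower and 9.83% higher, and the members' median was -0.26 against -0.12. The 5 members with the largest decrease were RPL22L1, RPL26L1, RPL10A, RPS19 and RPS4X. RPL22L1 was at 0.816, 1.42 and 1.83 UMIs per 10000 in BPIFA2C-rich cells of cows 1, 2 and 3 and at 2.05, 2.95 and 3.41 in DLK2 cells, and against all other cells it fell by 0.86 ± 0.13 (SE, adjusted p = 3.8e-08 by edgeR). RPL26L1 was at 0.465, 0.490 and 0.445 in BPIFA2C-rich and 0.914, 0.821 and 1.14 in DLK2 cells, and it fell by 0.78 ± 0.15. The states did not overlap for either paralog. RPL10A had a log2 fold change of -0.62, RPS19 of -0.53 and RPS4X of -0.48. The called count was smaller whichever cow was left out, with 20 members lower without cow 1, 16 without cow 2 and 18 without cow 3. Of all genes, 6.98%, 6.57% and 8.50% were called lower in these repeats, so the called count fell for all genes as well. The count of members depended on the tool, with 17 lower by DESeq2, and on scaling, with 59 lower by library size beside 15.0% of all genes, where 35.2% of all calls were higher in place of 46.8%. The share of all genes called by DESeq2 was not set beside its count. In cells with 8000 to 16000 UMIs, where cow 2 had too few cells and 2 cows were left, 6 members were called lower beside 2.24% of all genes, but the fold changes were larger in size, at -1.23 for RPL22L1, -1.40 for RPL26L1 and -0.79 for RPL10A. The sum of KRT6A, S100A8, KRT10 and CNFN was higher still in this state, at 27.6, 41.0 and 123 UMIs per 10000, again with no UMI of CNFN. KRT5 (log2 fold change -0.39) and KRT19 (-0.51) were called lower and KRT14 higher (0.37). Of the 5 cycling markers only MKI67 was called, as lower (-0.61). The immune marker CD3E was called higher there as well (log2 fold change 2.09, adjusted p = 0.018 by edgeR), whereas CD68 was at -1.03 and CD74 at 0.01 with no call. All immune markers summed to 0.0400, 0.0635 and 0.186 UMIs per 10000 in BPIFA2C-rich and 0.0557, 0.0810 and 0.0856 in remaining cells of cows 1, 2 and 3, so the sum was lower in cows 1 and 2 and higher in cow 3. The part of these markers in the result was not tested.

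Among the BPIFA2C-rich cells, 36 of 142, 5 of 55 and 21 of 73 in cows 1, 2 and 3 had under 2% mitochondrial UMIs, with median depths of 2668, 3218 and 4051 UMIs. Ribosomal protein genes held 34.7%, 37.3% and 23.5% of the UMIs there, and 24.5%, 30.6% and 26.6% in the other BPIFA2C-rich cells. Cow 3 thus ran opposite to the other cows. Without all cells under 2%, 47 members were called lower, beside 11.4% of all 11609 genes then tested.

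DLK2 cells showed the opposite direction, with 10 members higher and 1 lower, beside 12.0% of all 12302 tested genes higher and 12.3% lower. The proportion of members called was therefore near that of all genes. At an unadjusted p under 0.05 by edgeR, 52 of the 78 were higher and 1 was lower, and 71 were higher in all 3 cows. The share of all genes was not set beside these last counts, so they are no result about the members. The members' median was 0.19, beside 0.03 for all genes, which is under the fold limit of the call. RPL18 and RPS27 each rose by 0.30, RPS4X by 0.29, and RPL26, which lies near the exit of the nascent chain, and RPL10A by 0.27 on the log2 scale, with standard errors of 0.07 to 0.08. RPL10, RPS19, RPS20, RPS24 and RPLP0 were the other members called higher. Without cow 1, 0 members were called higher, without cow 2, 1 and without cow 3, 4, beside 7.44%, 4.40% and 11.9% of all genes. Over these repeats the log2 fold change of RPL18 was 0.25 to 0.33 and that of RPS27 0.24 to 0.35, and the difference in summed share was 4.05 to 5.46 percentage points. In cells with 8000 to 16000 UMIs 0 members were called higher, beside 5.43% of all genes. Markers of other classes moved with this state. The 5 cycling markers were called lower, from -4.92 for TOP2A to -2.52 for CENPF, in a state from which cells with 2 or more TOP2A UMIs had been set apart, and so were S100A8 (-1.59), KRT6A (-1.64) and the keratin KRT19 (-0.37). KRT5 (-0.15), KRT14 (-0.05) and KRT10 (-0.14) were not called. The cycling markers summed to 0.263, 0.226 and 0.684 UMIs per 10000 in DLK2 and 0.694, 0.407 and 1.16 in remaining cells. The sum of KRT6A, S100A8, KRT10 and CNFN was 2.72, 2.60 and 3.85 against 5.52, 4.34 and 7.24. Their part in the result was not tested.

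The IE comparisons called 0 members higher and 1 lower among all cells, beside 11.1% of all 11619 tested genes higher and 9.76% lower, and 0 higher and 1 lower among DLK2 cells, beside 11.3% of all 9704 tested genes higher and 9.61% lower. Among all cells, 12 members were higher at an unadjusted p under 0.05 by edgeR and DESeq2 called 4 higher, counts without the share of all genes beside them. With library size scaling 15 members were called higher among all cells, beside 10.8% of all genes, and 5 within DLK2 cells, beside 12.1%. With TMM the members' median among all cells was 0.19, as in DLK2 cells, but the biological coefficient of variation was 0.151, against 0.0660 in that comparison. Within DLK2 cells the median was 0.04, with 0 members higher at an unadjusted p under 0.05 by edgeR, and DESeq2 also called 0. There 54.1% of all calls were higher with TMM and 69.5% with library size scaling. RPL18 had the largest positive value in both, 0.43 ± 0.13 (SE, adjusted p = 0.064 by edgeR) among all cells and 0.28 ± 0.16 (adjusted p = 0.24) within DLK2 cells.

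**Figure D3:**
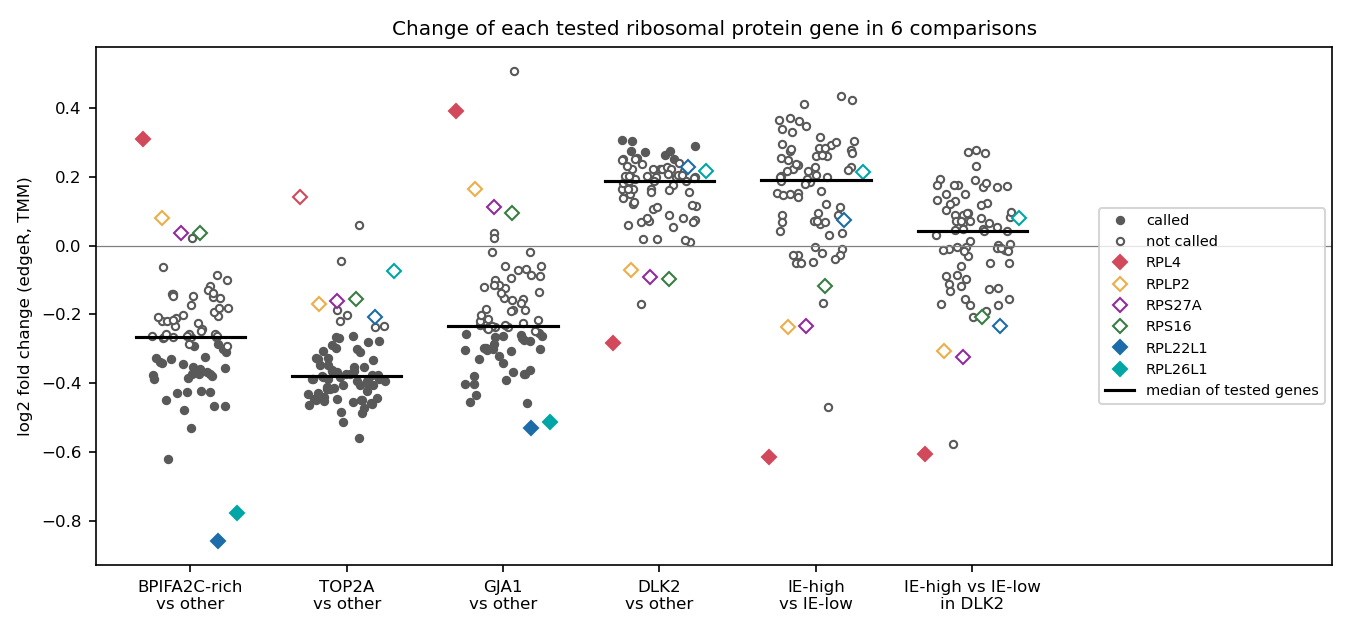
Log2 fold change of each of the 78 tested ribosomal protein genes in the 6 comparisons, with filled symbols for genes called, open symbols for genes not called, a black line for the median and diamonds for 6 named genes. The medians lie at -0.26, -0.38, -0.23, 0.19, 0.19 and 0.04 from left to right, RPL4 lies on the other side of 0 from the median in every comparison, and RPL22L1 and RPL26L1 lie lowest in the first.

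RPL4, whose protein lines the exit tunnel of the large subunit, lay on the other side of 0 from the median of the members in each comparison. It was not alone there, since a few others such as RPLP2, RPS16 and RPS27A did so in 5 of the 6 comparisons, with no call. In GJA1 cells it was at 17.3, 14.6 and 12.0 UMIs per 10000 in cows 1, 2 and 3, and in DLK2 cells at 12.0, 10.6 and 10.4. Against all other cells RPL4 rose in GJA1 cells by 0.39 ± 0.06 (SE, adjusted p = 0.00027 by edgeR) and fell in DLK2 cells by 0.28 ± 0.08 (adjusted p = 0.025), in 3 of 3 cows each. The call in DLK2 cells was lost without cow 1 (-0.18), without cow 2 (-0.30) and in cells with 8000 to 16000 UMIs (-0.30). RPL4 was also the 1 member called higher in BPIFA2C-rich cells, by 0.31 ± 0.12 (adjusted p = 0.043), where it was higher in 2 of 3 cows. That call is outside the rule by which single genes were chosen for a comparison and was picked after its values were seen, and it was lost without cow 1 (0.25), without cow 2 (0.29), with library size scaling (0.22), with no filter on low counts (0.25), without mitochondrial genes (0.33), with limits per 10000 UMIs (0.20) and in the depth window (0.20). In TOP2A cells its log2 fold change was 0.14 ± 0.07 (adjusted p = 0.15). Whether all UMIs listed for RPL4 come from its usual 3′ end was not tested.

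By size of the fold change, RPL4 differed most by IE level. It was at 10.1, 9.23 and 10.0 UMIs per 10000 in IE-high cells of cows 1, 2 and 3 and at 17.9, 13.2 and 12.3 in IE-low cells, with no overlap. Its log2 fold change was -0.61 ± 0.17 (SE, adjusted p = 0.047 by edgeR). Within DLK2 cells, RPL4 was at 9.68, 8.67 and 9.25 in the IE-high and 15.9, 11.9 and 11.7 in the IE-low cells, again without overlap, and the change was -0.61 ± 0.14 (adjusted p = 0.0054). Without cow 1 the fold changes were -0.42 among all cells and -0.45 within DLK2 cells and neither was called, and without cow 2 the call among all cells was lost at -0.61. Without cow 3, 9 members were called lower within DLK2 cells, beside 7.29% of all genes.

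Over the 15 sums of 5 states and 3 cows, with the mean of each cow taken out, 64 of the 73 members with over 100000 UMIs followed the summed share with a Pearson r over 0.9, and the median r was 0.98. These sums share libraries, and each member is part of the sum, so r is a description. RPL4 had r = -0.85. RPLP2 (0.05), RPS16 (0.15) and RPS27A (0.29), which is made as a fusion with ubiquitin, did not follow the sum. RPLP2 was at 47.4, 39.1 and 41.9 UMIs per 10000 in DLK2 cells and at 49.2, 43.3 and 40.6 in GJA1 cells, so the ranges overlapped, whereas RPLP1 was at 226, 204 and 176 in DLK2 and 150, 149 and 128 in GJA1 cells. The log2 fold changes of RPLP2, RPS16 and RPS27A lay between -0.32 and 0.16 in the 6 comparisons and none was called. RPSA, also the laminin receptor, was not called in any comparison, with values from -0.23 in TOP2A to 0.07 in DLK2 cells.

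The paralogs divided likewise. RPL22L1 and RPL26L1 were the members with the lowest fold changes in BPIFA2C-rich and GJA1 cells, where RPL26 had -0.45 and -0.40. In TOP2A cells RPL26L1 was at -0.07 and RPL22L1 at -0.21, neither of them called, while RPL26 was called at -0.45. RPS27L, a target of p53, lay between -0.17 and 0.07 in all 6 comparisons and RPL7L1 between -0.25 and 0.09, and neither was called. Whether a paralog and the gene it resembles differ was not tested.

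**Figure D4:**
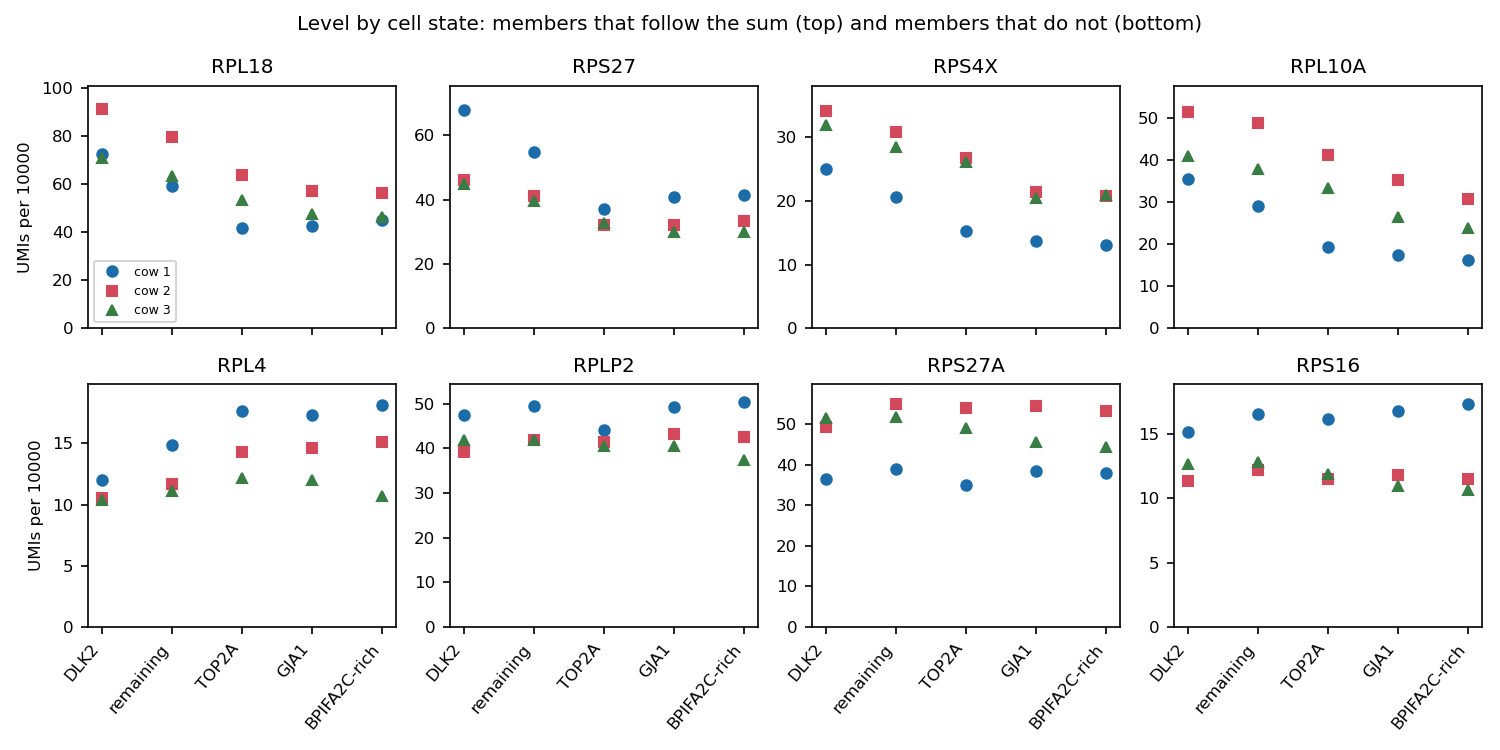
UMIs per 10000 in the 5 states for 4 members that follow the summed share (RPL18, RPS27, RPS4X and RPL10A, top) and 4 that do not (RPL4, RPLP2, RPS27A and RPS16, bottom), with a symbol for each cow and each axis starting at 0. The upper genes are highest in DLK2 cells in every cow, RPL4 is lowest there, and RPLP2, RPS27A and RPS16 are highest in DLK2 cells in no cow.

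The genes outside the member list whose share followed the summed share most closely over the same 15 sums, among 764 genes with at least 1 UMI per 10000, were EEF1A1 (r = 0.99), the elongation factor that brings aminoacyl-tRNA to the ribosome, RACK1 (0.99), a protein of the small subunit outside the naming rule, PPIB (0.99), NPAS2 (0.99), ANXA4 (0.99), PFDN5 (0.99), EIF3M (0.98) and the unnamed genes ENSBTAG00000051151, ENSBTAG00000048781 and ENSBTAG00000014423 (each 0.98). NPAS2 stood at 64.4 UMIs per 10000, and in the RefSeq annotation of bovine genes the next named coding gene is RPL31. Whether reads of one are counted for the other was not tested.

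Related lists are given as counts beside the share of all tested genes, which was 15.1% lower in TOP2A, 11.2% in BPIFA2C-rich and 18.5% in GJA1 and 12.0% higher in DLK2 cells. FAU, RACK1 and RPL36AL, ribosomal proteins that the naming rule does not reach, fell in TOP2A cells by 0.44, 0.45 and 0.41 on the log2 scale, and RACK1 and FAU rose in DLK2 cells by 0.29 and 0.26. Of the 5 elongation factor genes, 4 fell in TOP2A cells, EEF1D by 0.51 and EEF1A1 by 0.40, and 0 were called in DLK2 cells, while 1 of the 5, EEF1B2, was called lower in BPIFA2C-rich and in GJA1 cells. RACK1 was called lower in both of these states as well, and FAU and RPL36AL in neither. Of 12 other mRNAs with the TOP motif, 9 fell in TOP2A, 6 in BPIFA2C-rich and 5 in GJA1 cells, while 4 rose in DLK2 and 4 in IE-high cells, with 0 called in the opposite direction in any of these. NAP1L1, a histone chaperone, was furthest from 0, at -1.51 in BPIFA2C-rich, -1.26 in GJA1 and 0.47 in DLK2 cells, and TPT1 was called in each of the 6 comparisons, at -0.48, -0.59, -0.58, 0.41, 0.72 and 0.52 in the order BPIFA2C-rich, TOP2A, GJA1, DLK2, IE and IE within DLK2.

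Of 77 mitochondrial ribosomal protein genes 34 rose and 1 fell in GJA1 cells, beside 17.7% of all genes higher and 18.5% lower, and the median of the list was 0.22 where that of the cytosolic members was -0.23. In DLK2 cells 1 rose and 16 fell, beside 12.0% higher and 12.3% lower, and in IE-high cells 0 rose and 25 fell, beside 11.1% and 9.76%. Their summed level in GJA1 cells was 46.6, 56.0 and 61.9 UMIs per 10000 in cows 1, 2 and 3, and in DLK2 cells it was 44.7, 49.0 and 55.6. In TOP2A cells 15 of 76 rose and 8 fell, beside 14.2% and 15.1% of all genes, and in BPIFA2C-rich cells 11 of 77 rose and 3 fell, beside 9.83% and 11.2%. Ribosome biogenesis genes, 24 in number, gave 6 lower and 0 higher in BPIFA2C-rich, 6 lower and 2 higher in TOP2A, 4 and 4 in GJA1, and 1 lower and 3 higher in DLK2 cells. Of the 6 regulators of TOP mRNAs, which include LARP1 and MTOR, 1 was called higher and 1 lower in TOP2A, 1 lower in BPIFA2C-rich and 0 in GJA1 and DLK2 cells.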

How the data were processed

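Droplet 3′ libraries of 3 cows (1 each) were aligned by the authors to ARS-UCD1.2 and counted with Cell Ranger (3.1.0 per the submitters' processing notes). The authors filtered cells on genes, UMIs and mitochondrial share, looked for doublets with DoubletFinder and kept epithelial cells, and no doublet caller was run here. The deposited matrix holds whole UMI counts per gene and cell. The other deposited tables hold natural log values, made from counts scaled to 10000 UMIs per cell with 1 added, which matched the counts within 1e-06 at every value and gave the gene names. The barcode suffix gave the cow. Other deposited files were not used.

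Counts were summed per cow and state, and comparisons used sums of at least 20 cells (Python 3.11.15, numpy 2.4.6, pandas 2.3.3, scipy 1.17.1, matplotlib 3.10.9). The BPIFA2C-rich cells under 2% mitochondrial UMIs were described without this limit, with 5 cells in cow 2. edgeR 4.0.16 in R 4.3.3 was run with TMM, filterByExpr, the cow as a block and quasi-likelihood tests, and p-values were adjusted by the Benjamini-Hochberg method across the genes tested in each comparison. The procedure was tested on simulated data. The cow is the block because both sums come from the same animal, and deviations of sums of the same cow correlated at 0.41 to 0.88, those of different cows at -0.54 to -0.13. Each deviation was taken from the mean of the 3 cows. Positive values within cows therefore force negative ones between cows, and the latter are no separate evidence. DESeq2 1.42.0 was an alternative, beside other scalings, filters, limits and left-out cows. Named were the 8 members with the most UMIs, up to 5 called members per direction that moved alike in all 3 cows, the stalk proteins, RPSA, RPS6, RPS27A, RPL5, RPL11, RPS4X, paralogs, and up to 10 genes most like the sum. RPL12, RPS15A, RPS16, RPS29 and RPL10, and the genes named from lists, were picked after their values were seen. Some genes are not reported here, though sums, counts and medians over the members still hold them. The members, lists and tests were chosen with earlier results of these data known. Symbols of all 80 members matched the RefSeq gene table, which is of another assembly (ARS-UCD2.0), so no coordinates are given. Precision rests on the spread of 3 cows, and UMI depth limits counting error only.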

Additional observations from a re-analysis of the deposited data

How the results depend on the processing

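Mean differences in summed share kept their direction under each alternative, including every left-out cow. Within DLK2 cells the IE difference fell from 3.33 to 1.40 with mitochondrial UMIs left out, and cow 2 had the opposite sign (-1.28). That case did not count as moved, because the SD was 2.77. Mean differences moved by more than 1 SD in 4 cases, namely GJA1 at -9.88 and DLK2 at 3.26 with cells thinned to 3000 UMIs, and GJA1 at -8.65 with limits per 10000 UMIs and -10.5 in cells with 8000 to 16000 UMIs. The last window and the removal of cells under 2% mitochondrial UMIs were chosen after seeing the data. Thinning left out 491 cells, and in the depth window the BPIFA2C-rich comparison rested on 2 cows, since cow 2 had under 20 such cells.

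Counts of called members depended more on the settings. Without the replicate block, 0 members were called in either direction in all 6 comparisons. DESeq2 gave 17 lower in BPIFA2C-rich and 4 higher in IE-high cells. Library size scaling gave 0 higher and 59 lower in BPIFA2C-rich, 1 higher and 44 lower (in place of 65) in TOP2A, 60 lower in GJA1, 17 higher in DLK2, 15 higher in IE-high and 5 higher in IE-high DLK2 cells. In the DLK2 comparison, 1586 of all 12302 tested genes were called higher with this scaling. With no filter there were 0 higher in BPIFA2C-rich and 51 lower in GJA1 cells, and without mitochondrial genes 0 higher in BPIFA2C-rich cells. An adjusted p alone gave 2 higher and 55 lower in GJA1 and 28 higher in DLK2 cells. Limits per 10000 UMIs gave 0 higher in BPIFA2C-rich and 2 higher in DLK2 cells. Cells with 8000 to 16000 UMIs gave 0 higher and 6 lower in BPIFA2C-rich, 57 lower in GJA1, 0 higher and 0 lower in DLK2 and 0 lower in IE-high cells. Leaving out each cow gave 0 to 1 higher and 16 to 20 lower in BPIFA2C-rich, 57 to 67 lower in TOP2A, 24 to 38 lower in GJA1, 0 to 4 higher and 0 to 2 lower in DLK2, 0 to 1 lower in IE-high and 0 to 9 lower in IE-high DLK2 cells. The cause was not tested. The number of all genes called changed with the setting as well. A count of members given here or above without the share of all genes is therefore not set against all genes. The called members named for a comparison, and RPL4 in all 6, kept their sign in all 314 repeats run, and 58 of these lost the call.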
